A study of Homo sapiens with 8 samples.

Results

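RGS proteins, the regulators of G protein signalling, were followed in buds and bulks of human stem cell spheroids differentiated towards pancreatic islet cells. The 10 genes RGS2, RGS4, RGS5, RGS7, RGS8, RGS9, RGS10, RGS11, RGS16 and RGS17 were listed by symbol and matched to their Ensembl rows with GENCODE, out of 58233 genes in the table. Of the 10, 9 passed the expression filter among 16641 genes tested, and RGS10 did not. All samples came from HUES8, a human embryonic stem cell line in wide laboratory use, at stage 5 of a stepwise differentiation in flasks. Buds are small structures shaken off the spheroids and collected by filtering, and bulks are the spheroids that remained. The 5 bulk libraries are those of flasks 252, 261, 264, 270 and 274, and the 3 bud libraries those of flasks 264, 270 and 274; the labels give no genotype or drug contrast. The model is 1 cell line, so the spread between libraries is that between flasks of the same line, and each library pools all the cell types of its fraction.

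Receptors coupled to heterotrimeric G proteins load GTP onto a G alpha subunit, which then parts from its beta and gamma subunits, and both parts act on effectors such as adenylyl cyclase, phospholipase C and potassium channels. RGS proteins end the signal by speeding the hydrolysis of that GTP. Their subfamilies differ in partners: R4 proteins are small, R7 proteins are stable only when bound to the beta subunit encoded by GNB5, RZ proteins act on the alpha subunits of the Gi family that includes GNAZ, and R12 proteins carry further domains in most members. In mouse, Rgs4, Rgs8 and Rgs16 are known from endocrine progenitors of the embryonic pancreas, and Rgs5 is widely used as a marker of pericytes.

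Libraries held 6083973 to 12508039 expected counts. Values below are CPM, counts per 1000000 on TMM-scaled library sizes, unless stated, and a gene passed when the adjusted p of edgeR's quasi-likelihood test was below 0.05. The labels name the 2 fractions and state no direction for any gene. SST, the somatostatin gene, was at 5733 ± 2251 CPM in buds (SD, n = 3) and 933 ± 488 in bulks (SD, n = 5). The proliferation marker MKI67 was at 10.2 ± 0.241 and 67.7 ± 13.4. Of 7 islet hormone genes 5 rose, SST among them, and INS and GCG did not pass (edgeR adjusted p = 0.292 and 0.480). Of 12 neuron markers 12 rose, and of 11 endocrine markers 9 rose and none fell. Among all genes tested 23.4% rose and 23.8% fell. The bulk of flask 264 stood apart, with the lowest summed level of endocrine markers, 1639 CPM against 2981 to 5835 in the other bulks.

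The promoters below are shown because RGS7 and RGS17 rose together in buds, whereas RGS5 fell and its neighbour RGS4 did not pass. RGS4 and RGS5 lie on opposite strands of chromosome 1 with no protein-coding gene between them. The gap of 34.3 kb separates the 3′ ends of these genes, and the promoters shown lie further apart. Each is the 250 bases before the RefSeq start nearest the canonical start (GRCh38.p14), written 5′ to 3′ on the gene's strand. RGS4, RGS5 and RGS7 have 4, 2 and 4 RefSeq windows, of which only the nearest is shown, and RGS17 has 1. The windows shown for RGS4 and RGS5 lie within their annotated genes. The expression values are per gene and do not separate the starts. RGS4 is read from the plus strand (chr1:163069111-163069360), and RGS5 (chr1:163202917-163203166), RGS7 (chr1:241357206-241357455) and RGS17 (chr6:153131283-153131532) from the minus strand. Capitals mark the searched motifs, found on either strand: the E-boxes CAGATG and CAGCTG, the core TGACG of the cAMP response element and the full element TGACGTCA that contains it, the TATA box TATAAA, and the GC box GGGCGG.
RGS4: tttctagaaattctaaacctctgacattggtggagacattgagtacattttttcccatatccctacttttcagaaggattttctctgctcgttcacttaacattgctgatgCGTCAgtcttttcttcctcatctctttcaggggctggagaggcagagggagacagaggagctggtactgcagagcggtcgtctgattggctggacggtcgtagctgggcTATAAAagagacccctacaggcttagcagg
RGS5: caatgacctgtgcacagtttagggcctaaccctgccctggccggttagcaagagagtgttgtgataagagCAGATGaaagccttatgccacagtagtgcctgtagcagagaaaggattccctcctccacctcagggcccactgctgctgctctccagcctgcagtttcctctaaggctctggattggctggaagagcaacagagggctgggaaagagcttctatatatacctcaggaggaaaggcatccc
RGS7: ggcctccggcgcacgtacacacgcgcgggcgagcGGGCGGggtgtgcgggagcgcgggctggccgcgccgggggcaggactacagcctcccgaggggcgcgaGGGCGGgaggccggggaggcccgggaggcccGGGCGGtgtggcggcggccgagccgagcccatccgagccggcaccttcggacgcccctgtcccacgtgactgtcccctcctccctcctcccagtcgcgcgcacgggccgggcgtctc
RGS17: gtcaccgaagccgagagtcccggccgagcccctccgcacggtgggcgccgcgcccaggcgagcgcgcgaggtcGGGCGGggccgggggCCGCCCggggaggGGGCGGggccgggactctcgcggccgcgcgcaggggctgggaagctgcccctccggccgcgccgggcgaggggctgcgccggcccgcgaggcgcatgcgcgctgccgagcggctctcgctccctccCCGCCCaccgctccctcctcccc
The windows of RGS7 and RGS17 held 3 and 4 GC boxes, at a GC content of 80.4% and 84.0%. The windows of RGS4, RGS5, RGS8 and RGS9, none of which rose, held no GC box. The window of RGS10, not detected in buds, held 5 (77.2% GC). That of RGS16, which did not pass, held 2 (68.4% GC), and that of RGS2, which rose, held 1 (72.8% GC). The RGS4 window (47.6% GC) held a TATA box 30 bases before the start and a TGACG core 139 bases before it, and the RGS5 window (53.6% GC) held a CAGATG E-box 180 bases before its start. Of 35116 RefSeq windows of this length, 42.6% held a GC box, 10.7% a TATA box, 21.2% the TGACG core, 1.65% the full element, 12.2% CAGATG and 13.99% CAGCTG, and the median GC content was 58.0%. Of the 10 genes, 9 had a window in the RefSeq table. A match is a description of the letters and was not tested against the expression values.

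Of the 9 tested genes, 4 rose in buds (RGS2, RGS7, RGS11 and RGS17), RGS5 fell, and RGS4, RGS8, RGS9 and RGS16 did not pass. Across all genes tested 23.4% rose and 23.8% fell, 47.2% in either direction, so 5 of 9 was near the background share. The median log2 fold change of the 9 was 0.88, beside -0.02 over all genes tested. Bud and bulk ranges did not overlap for 3 of the genes that rose and for RGS5; over all genes tested, 23.5% had all buds above all bulks and 23.7% all buds below. Without the bulk of flask 264 the counts were also 4 and 1. In these pooled samples, fewer cells of a type and less RNA per cell cannot be told apart.

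**Figure D1:**
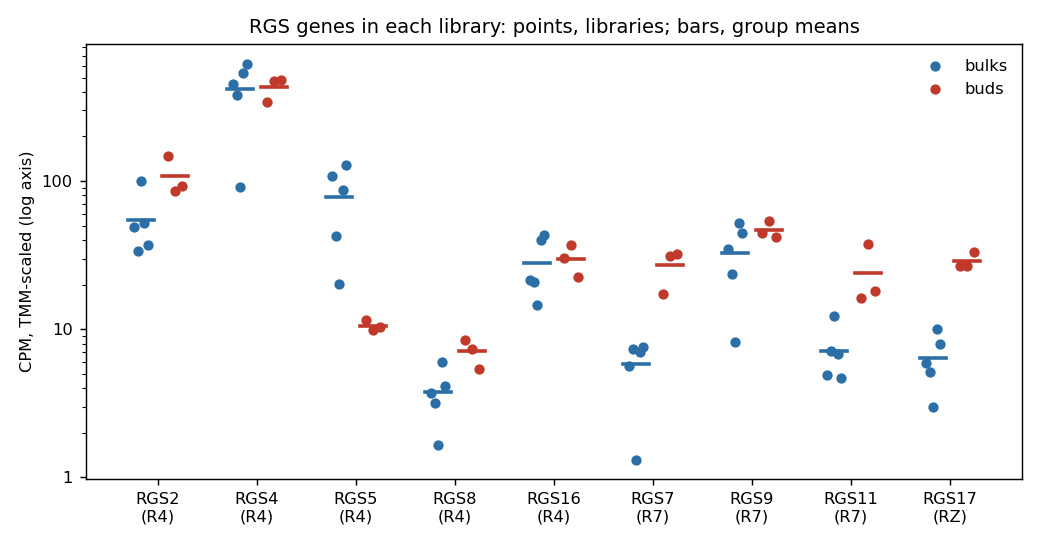
CPM (log axis) of the 9 tested RGS genes in each of 5 bulk and 3 bud libraries, with group means as bars and subfamilies in brackets. Buds lie wholly above bulks for RGS7, RGS11 and RGS17 and wholly below for RGS5; the lowest bulk point of RGS4, RGS7 and RGS9 is that of flask 264.

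RGS5 was the only 1 of the 9 to fall. It encodes an R4 protein that acts on Gi and Gq family subunits (chromosome 1, 163111121 to 163321791, minus strand, GRCh38). It stood at 108, 42.8, 20.3, 87.4 and 129 CPM in the bulks of flasks 252, 261, 264, 270 and 274, and at 11.5, 9.82 and 10.3 CPM in the buds of flasks 264, 270 and 274. The 3 buds were thus close to each other and all lay under the lowest bulk, while the bulks spread 6.37-fold. The log2 fold change was -2.89 ± 0.54 (SE; edgeR adjusted p = 0.00130), and it stayed between -3.13 and -2.63 when each library was left out in turn. Within flasks the log2 difference was -0.82 in flask 264, -3.15 in 270 and -3.65 in 274, the smallest being in the flask whose bulk was lowest.

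Markers of mesenchyme and pericytes did not follow 1 direction beside RGS5: of 12 tested, 3 rose and 5 fell. The shares over all genes tested were 23.4% and 23.8%. NOTCH3, a Notch receptor gene of mural cells, had the largest fall, 3.01 ± 0.26 on the log2 scale (edgeR adjusted p = 2.19e-05). ACTA2 and TAGLN, genes of the contractile apparatus, had -2.65 ± 0.69 and -0.90 ± 0.32 (edgeR adjusted p = 0.00935 and 0.0378), and the collagen gene COL1A1 had -2.17 ± 0.45 (0.00247); ACTA2 did not pass with flask as a block (0.0617). The channel genes KCNJ8 and ABCC9, used as pericyte markers, rose by 2.88 ± 0.45 and 3.48 ± 0.56 (edgeR adjusted p = 0.000481 and 0.000535), and CSPG4, the NG2 proteoglycan gene of pericytes, fell by 2.68 ± 0.41 (0.000382). PDGFRB, a receptor gene used as a pericyte marker, had -1.86 ± 0.89 (edgeR adjusted p = 0.108), and passed as lower with flask as a block (0.0354). The collagen gene COL3A1 had 1.41 ± 1.08 (edgeR adjusted p = 0.310), and passed as higher with the block (0.0400). PDGFRA, another receptor gene of the list, rose by 1.19 ± 0.33 (edgeR adjusted p = 0.0123). The summed level of all 14 listed markers was 339 to 491 CPM in bulks and 90.8 to 179 in buds, and 47.5 to 112 and 48.7 to 127 CPM without NOTCH3. Of 6 markers of cycling cells 6 fell. The part of these cells in the RGS5 result was not tested. Over the 8 libraries, the genes with the profile closest to RGS5 were DLGAP5 and E2F7, both genes of the cell cycle, and TDO2, an enzyme of tryptophan breakdown. Their root-mean-square distances from RGS5 in mean-centred log2 CPM were 0.41, 0.42 and 0.43, against a median of 1.48 over all 16640 other genes. The gene NUF2 lies across RGS5 on the opposite strand, and whether counting used strand is not given in the sources used here; NUF2 held 10 to 78 counts a library and fell too (-2.09, edgeR adjusted p = 0.000298).

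RGS4, the most abundant of the 10 per unit of length, did not pass. This R4 gene (chromosome 1, 163068775 to 163076802, plus strand) stood at 449, 384, 91.5, 535 and 619 CPM in the bulks of flasks 252, 261, 264, 270 and 274, and at 342, 473 and 483 CPM in the buds of flasks 264, 270 and 274. Buds lay inside the range of the bulks, and the bulk of flask 264 was far below the rest. Buds over bulks gave a log2 fold change of 0.06 ± 0.44 in the edgeR fit (adjusted p = 0.925). Within flasks it was 1.90 in flask 264 but -0.18 and -0.36 in 270 and 274, and leaving out the bulk of flask 264 gave a fitted value of -0.20 (edgeR adjusted p = 0.402). INSM1, a transcription factor gene of new endocrine cells, was also lowest in that bulk, at 432, 286, 136, 630 and 556 CPM in the same order. It did not pass (0.41 ± 0.38, edgeR adjusted p = 0.406). Of the 11 endocrine markers, which include INSM1, 9 rose in buds, against 23.4% of all genes tested. The other marker that did not pass was NEUROD1 (0.11 ± 0.42, edgeR adjusted p = 0.853). Among bulks it too was lowest in flask 264, at 59.5 CPM. The part of endocrine content in the RGS4 values was not tested.

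RGS16 and RGS8, R4 genes that also neighbour each other on chromosome 1 (37.4 kb apart), did not pass. RGS16 (182598623 to 182604389) stood at 21.4, 20.9, 14.5, 39.8 and 43.3 CPM in bulks and at 30.5, 36.8 and 22.4 in buds, in the flask order given above. Bud and bulk ranges overlapped, and the bud was the higher sample in flask 264 alone (log2 fold change 0.08 ± 0.33, edgeR adjusted p = 0.853). RGS8 (182641816 to 182684587) was low, at 3.70, 3.19, 1.65, 6.04 and 4.16 CPM in bulks and 8.49, 7.37 and 5.38 in buds. Its bud exceeded its bulk in all 3 flasks, yet the ranges overlapped by the bulk of flask 270, and its value of 0.88 ± 0.34 on the log2 scale missed the threshold (edgeR adjusted p = 0.0546). RGS8 passed with DESeq2 (adjusted p = 0.0368) and in edgeR when the bulk of flask 270 was left out (0.0174), but not with flask as a block (0.181).

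RGS2, an R4 gene whose protein prefers Gq family subunits and whose transcript is induced by cAMP in many cells, rose. It stood at 48.9, 33.9, 101, 52.3 and 37.0 CPM in bulks and at 147, 85.9 and 93.0 in buds (chromosome 1, 192809039 to 192812275, plus strand). The bulk of flask 264 exceeded the buds of flasks 270 and 274, so the ranges overlapped, while within flasks the bud was higher by 0.55, 0.72 and 1.33 on the log2 scale in flasks 264, 270 and 274. On the log2 scale the rise was 0.997 ± 0.33 (edgeR adjusted p = 0.0275). It no longer passed when the bud of flask 264 was left out (0.72, edgeR adjusted p = 0.128) or when the bulk of flask 252, 261, 270 or 274 was (0.0508 to 0.0602). Leaving out the bulk of flask 264 gave 1.33 (edgeR adjusted p = 0.000642).

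**Figure D2:**
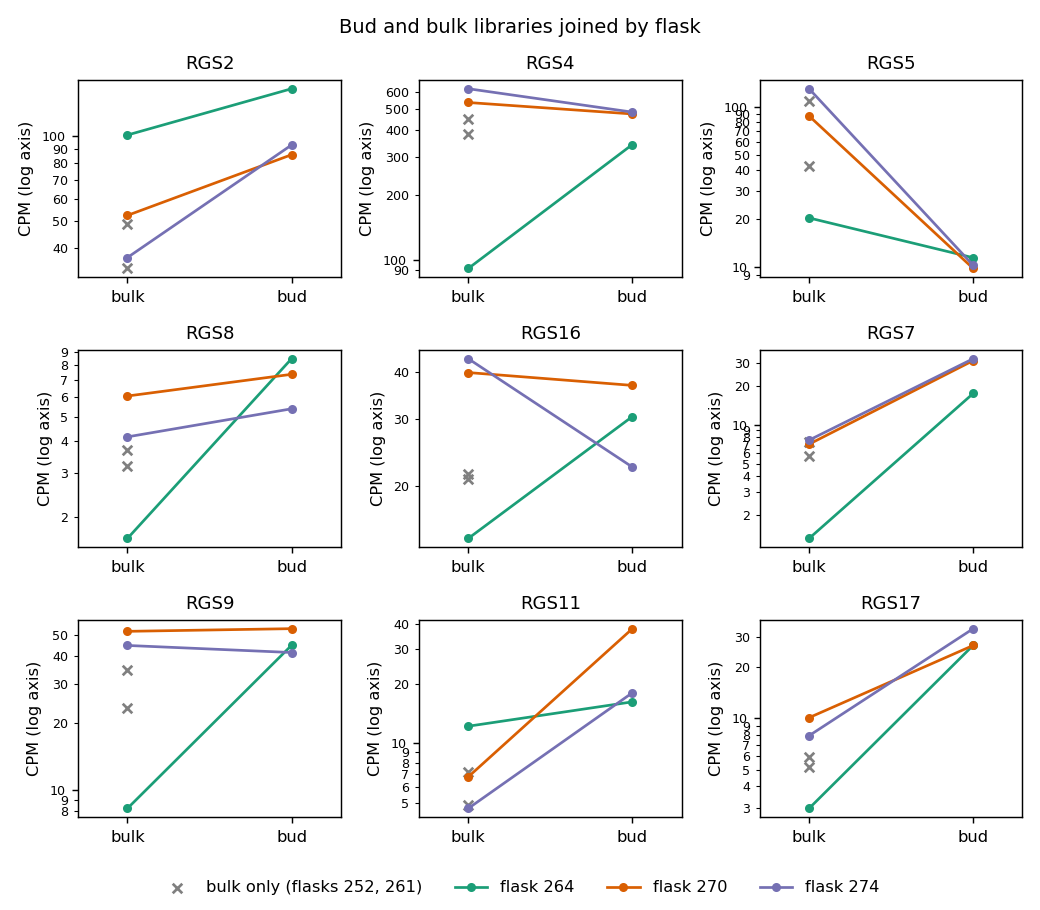
CPM (log axis, a scale for each gene) of the 9 tested RGS genes in bulk and bud, joined by a line where both came from 1 flask; crosses are bulks of flasks 252 and 261, which gave no bud. Lines rise in all 3 flasks for RGS2, RGS7, RGS8, RGS11 and RGS17, fall in all 3 for RGS5, and part for RGS4, RGS9 and RGS16, where flask 264 rises.

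The R7 genes RGS7 and RGS11 rose and RGS9 did not pass. RGS7, a regulator of Gi and Go signalling best known from neurons, stood at 5.68, 7.31, 1.32, 7.05 and 7.58 CPM in bulks and at 17.4, 31.2 and 32.3 in buds (chromosome 1, 240767636 to 241357374, minus strand). Every bud lay above every bulk, and within each flask the bud was higher by 3.72, 2.15 and 2.09 on the log2 scale, the largest being in flask 264, where the bulk held 8 counts. RGS7 rose by 2.20 ± 0.38 on the log2 scale (edgeR adjusted p = 0.000883), the largest rise among the 9. The genes with the closest profile to RGS7 over the 8 libraries were SYNJ1, a phosphatase gene of synaptic vesicle recycling, FRMPD3, and the peptide gene SPX, at distances of 0.25, 0.29 and 0.29 against a median of 1.33 over all other genes.

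RGS11 was at 4.89, 7.17, 12.2, 6.78 and 4.70 CPM in bulks and at 16.2, 37.8 and 18.0 in buds (chromosome 16, 268301 to 275980, minus strand). The ranges did not overlap, although in flask 264 bud and bulk were near each other, with a log2 difference of 0.41 against 2.48 and 1.94 in flasks 270 and 274. The log2 fold change was 1.77 ± 0.35 (edgeR adjusted p = 0.00193), and without the bud of flask 270 it was the lowest of the values with 1 library left out, 1.31. FAM234A overlaps RGS11 on the opposite strand, with 515 to 891 counts a library, and had -0.45 on the log2 scale (edgeR adjusted p = 0.123).

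RGS9, known from photoreceptors and the striatum, was at 34.8, 23.5, 8.24, 51.9 and 44.8 CPM in bulks and at 44.9, 53.4 and 41.7 in buds (chromosome 17, 65100812 to 65227703, plus strand). Bulks of flasks 270 and 274 lay among the buds. The log2 fold change was 0.50 ± 0.42 (edgeR adjusted p = 0.346), with a within-flask difference of 2.45 in flask 264 and of 0.04 and -0.11 in the other flasks.

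RGS17, an RZ gene whose protein acts on Gi, Go and Gz subunits, rose. It stood at 5.95, 5.18, 2.97, 10.1 and 7.90 CPM in bulks and at 26.7, 26.7 and 33.4 in buds (chromosome 6, 153004459 to 153131282, minus strand). All buds exceeded the highest bulk, and the bud was higher within each flask by 3.17, 1.40 and 2.08 on the log2 scale. In the fit RGS17 rose by 2.14 ± 0.29 on the log2 scale (edgeR adjusted p = 0.000193), between 1.97 and 2.37 with each library left out in turn.

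RGS10, an R12 gene known from immune cells and neurons, was not detected in buds. It had 0 of 30426903 counts in the 3 buds together, which allows up to 0.0986 CPM (3 counts, counting error only), and 2 counts in the 5 bulks. It was not tested.

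Neuron markers were also higher in buds, with 12 of 12 higher, against 23.4% of all genes tested, and none at 0. Their summed level was 3585 to 5349 CPM in buds and 761 to 1295 in bulks. Within each fraction that sum was lowest in flask 264. RGS2 was highest in flask 264 in both fractions and RGS11 was highest there among bulks, while RGS7 and RGS17 were lowest in that bulk. Endocrine markers summed to 8002 to 14104 CPM in buds and 1639 to 5835 in bulks. The part of neuron-like or endocrine content in the RGS2, RGS7, RGS11 and RGS17 results was not tested.

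The bulks differed among themselves in the same genes. Of the 9 tested genes, 7 had their lowest bulk level in flask 264 (RGS4, RGS5, RGS7, RGS8, RGS9, RGS16 and RGS17), and RGS2 and RGS11 had their highest there. The other 7 were highest in flask 270 (RGS8, RGS9 and RGS17) or 274 (RGS4, RGS5, RGS7 and RGS16). The spread over bulks, as SD over mean, ran from 42.1% for RGS17 to 58.3% for RGS5. Over buds it ran from 8.05% for RGS5 to 50.1% for RGS11. The summed levels of endocrine and neuron markers were also lowest in the bulk of flask 264 (1639 and 761 CPM). That of mesenchyme and pericyte markers was highest there (491 CPM), but without NOTCH3 it was highest in flask 274 (112 CPM, against 97.1 in flask 264). The part of these cell contents in the differences between bulks was not tested.

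Levels were compared between genes per kilobase of the canonical transcript. In bulks RGS4 led at 139 ± 67.6 CPM per kilobase (SD, n = 5), followed by RGS2 at 40.5 ± 20.03, which exceeded it in flask 264. RGS5 (13.7 ± 7.98), RGS9 (13.1 ± 6.96) and RGS16 (11.6 ± 5.30) came next and did not differ beyond their spread. RGS11 (2.98 ± 1.26) and RGS7 (2.27 ± 1.02) lay within their spread of each other, and so did RGS17 (0.809 ± 0.341) and RGS8 (0.626 ± 0.266). Within every bulk library, however, RGS17 exceeded RGS8. In buds RGS4 was at 145 ± 26.3 CPM per kilobase and RGS2 at 80.6 ± 24.9 (SD, n = 3), ahead of RGS9 at 18.7 ± 2.43. RGS16 (12.4 ± 3.00), RGS7 (10.6 ± 3.25) and RGS11 (10.004 ± 5.01) followed and did not differ beyond their spread, then came RGS17 (3.65 ± 0.489), RGS5 (1.86 ± 0.149) and RGS8 (1.18 ± 0.264). The ranges of the remaining neighbours in the bud order did not overlap. RGS5 thus lay level with RGS9 and RGS16 in bulks and below both in buds, at rank 8. With the union of annotated exons as the length, an alternative chosen after seeing the data, RGS4 and RGS2 still led in both groups, RGS9 and RGS16 changed places in both, RGS5 was at rank 7 in buds, and RGS7, which has many annotated exons, at rank 8.

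RGS4 made up 64.2 to 69.1% of the summed per-length level of the 10 genes in the bulks of flasks 252, 261, 270 and 274. In the bulk of flask 264 its share was 24.6%, and RGS2 held 60.0%. In buds RGS4 held 41.7, 54.1 and 57.0% and RGS2 39.7, 21.7 and 24.3% in flasks 264, 270 and 274, so flask 264 had the highest RGS2 share in both fractions. The sum itself was 284 ± 9.22 CPM per kilobase in buds (SD, n = 3) and 225 ± 71.1 in bulks (SD, n = 5).

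**Figure D3:**
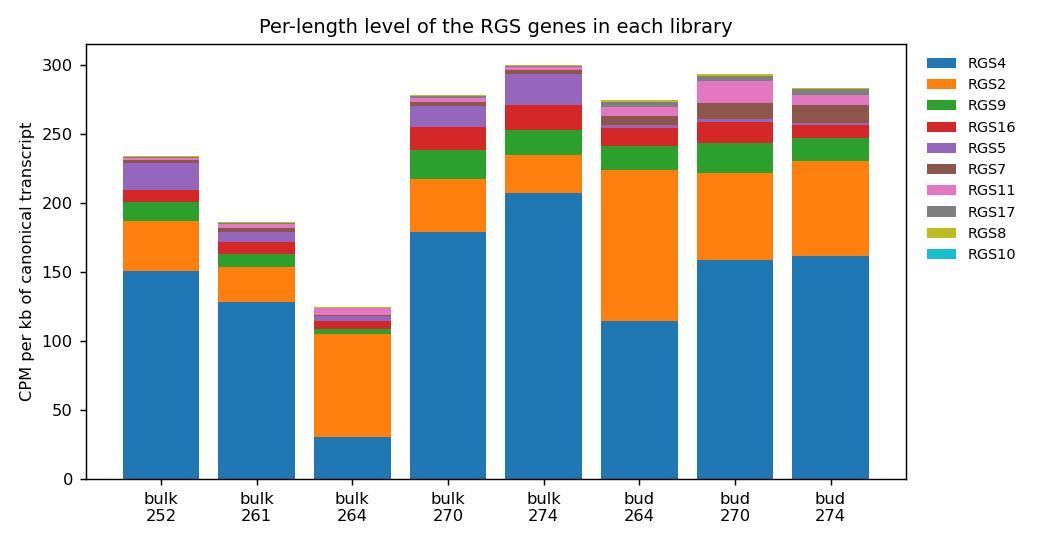
CPM per kilobase of canonical transcript of the 10 RGS genes, stacked for each library. RGS4 is the largest block in each library but the bulk of flask 264, where RGS2 is; RGS5 is visible in bulks and thin in buds.

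Other RGS genes were set beside these. Of 11 such genes 6 were tested, and 4 rose (RGS3, RGS6, RGS12 and RGS22) and none fell. The shares over all genes tested were 23.4% higher and 23.8% lower. RGS6, the remaining R7 gene, rose by 1.21 ± 0.21 on the log2 scale (edgeR adjusted p = 0.00101), from 11.3 ± 2.82 CPM in bulks to 26.3 ± 4.07 in buds, so 3 of 4 R7 genes rose. RGS3, an R4 gene, rose by 0.64 ± 0.17 (edgeR adjusted p = 0.00913). RGS12 had 0.44 ± 0.15 (edgeR adjusted p = 0.0299) and RGS22 had 1.91 ± 0.70 (0.0444), from at most 7 counts in bulks to 9, 13 and 17 in buds. Both calls were lost with flask as a block (edgeR adjusted p = 0.0877 and 0.103), leaving 2 of 6 higher against 19.5% of all genes in that fit. Leaving out 1 library gave a count of 2 for bulks 252, 261 and 274 and for bud 270, and of 3 for the others; RGS22 passed in none of these fits and fell below the filter in 4. RGS14 had -0.26 ± 0.27 (edgeR adjusted p = 0.468) and RGS19 -0.02 ± 0.52 (0.983). RGS13, RGS18 and RGS21 had no counts in any library, RGS1 had 4 counts over buds and 6 over bulks, and RGS20 had 10 and 16. Over the 21 RGS genes, 15 were tested, 8 rose and 1 fell.

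**Figure D4:**
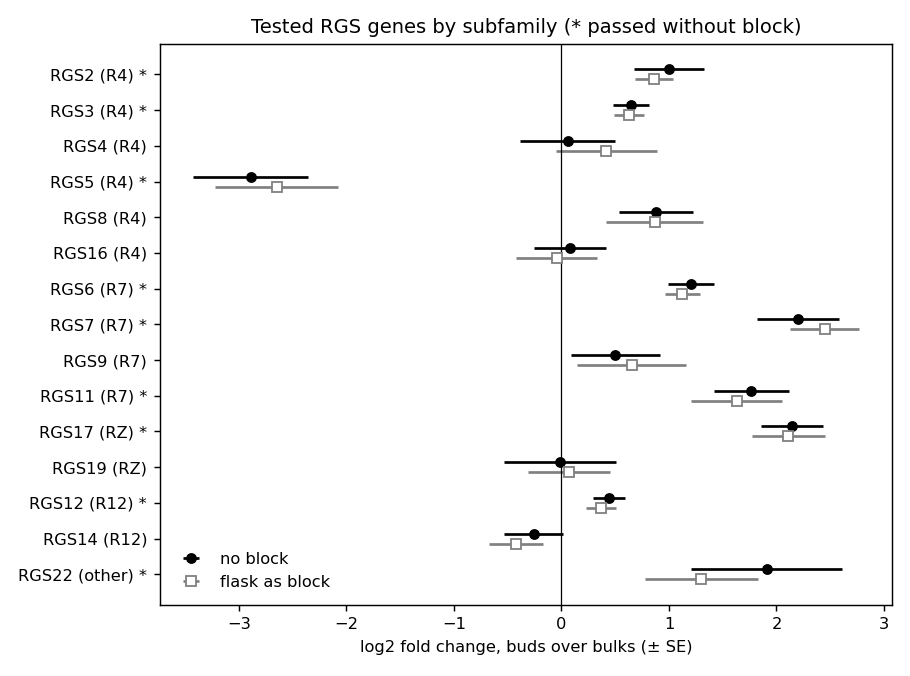
Log2 fold change, buds over bulks, with its SE, for the 15 tested RGS genes by subfamily, from edgeR without a block (black) and with flask as a block (grey squares). RGS7 and RGS17 have the highest values of the 10 listed genes, and RGS5 (-2.89) the lowest of the 15.

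The partners of R7 proteins rose with RGS6, RGS7 and RGS11. Of 5 listed, 4 were tested and all 4 rose, each with buds above all bulks. Over all genes tested 23.4% rose, and 23.5% had all buds above all bulks. RGS9BP, the anchor of RGS9, had 1 count in all libraries together. GNB5, the obligate beta subunit of R7 proteins, went from 29.5 ± 3.62 CPM in bulks to 55.5 ± 5.13 in buds (log2 fold change 0.91 ± 0.13, edgeR adjusted p = 0.000326). RGS7BP, the membrane anchor of R7 complexes, was scarce, with 5, 3, 1, 7 and 4 counts in bulks and 24, 28 and 32 in buds (2.51 ± 0.37, edgeR adjusted p = 0.000322). The orphan receptor genes GPR158 and GPR179, whose proteins bind R7 complexes, rose by 1.11 ± 0.31 (edgeR adjusted p = 0.0120) and 2.53 ± 0.28 (6.11e-05). GPR179 held 8, 9, 6, 10 and 10 counts in bulks and 62, 55 and 62 in buds. The median of the 4 was 1.81. Under the stricter filter of at least 5 CPM in 3 libraries, the count of partners that rose was 2.

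G alpha subunits, only some of which RGS proteins act on, were higher in buds in 10 of 12 tested cases and lower in none. Their median log2 fold change was 0.78. Over all genes tested 23.4% rose and 23.8% fell. GNAO1, the Go subunit of neurons and endocrine cells, rose by 2.22 ± 0.31 (edgeR adjusted p = 0.000233), from 29.9 ± 13.9 to 141 ± 8.77 CPM. GNAL rose by 2.05 ± 0.29 (edgeR adjusted p = 0.000234). GNAZ, the Gz subunit on which RGS17 acts, rose by 1.61 ± 0.17 (edgeR adjusted p = 4.31e-05), from 39.0 ± 8.63 to 119 ± 7.57 CPM. Of 11 tested beta and gamma subunits 7 rose and GNG5 fell (-1.86 ± 0.24, edgeR adjusted p = 0.000126). The gamma subunit genes GNG3, GNG2 and GNG4 led, at 3.97 ± 0.33, 2.75 ± 0.45 and 2.06 ± 0.28 (edgeR adjusted p = 1.89e-05, 0.000568 and 0.000215).

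**Figure D5:**
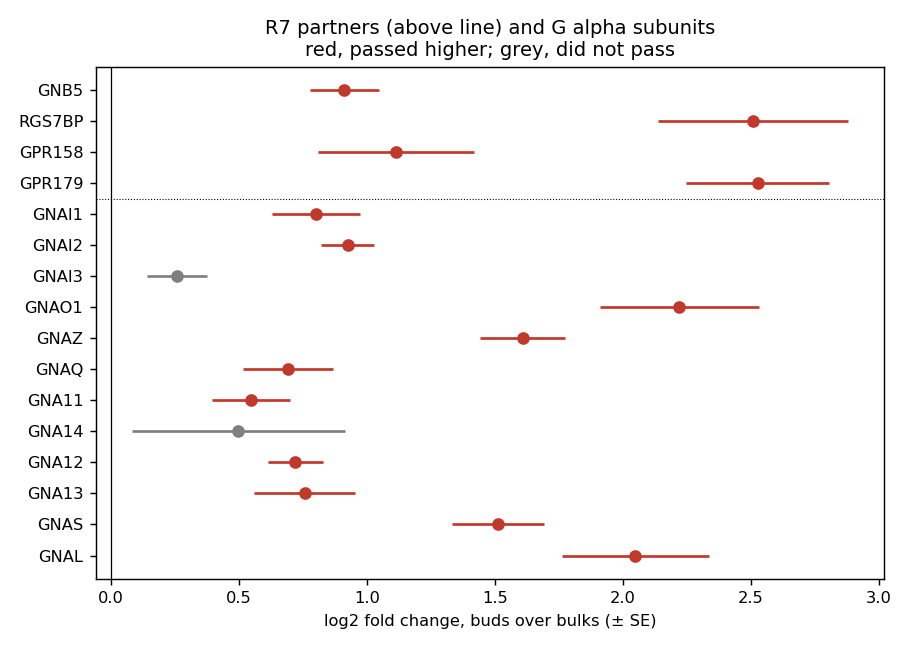
Log2 fold change, buds over bulks, with its SE, for the 4 tested partners of R7 proteins and the 12 tested G alpha subunits. All 16 values are above 0; GNAI3 and GNA14 did not pass the threshold.

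Other regulators and effectors held calls in both directions, beside 23.4% higher and 23.8% lower over all genes tested. Of 15 tested effectors 7 rose and 2 fell, with a median of 0.11. With flask as a block 5 rose and 3 fell: ADCY8 and PLCB4 no longer passed (edgeR adjusted p = 0.130 and 0.133) and PLCB1 did (0.0189). KCNJ6, a potassium channel gene opened by beta and gamma subunits, rose by 2.19 ± 0.33 (edgeR adjusted p = 0.000355). The adenylyl cyclase gene ADCY2 rose by 2.18 ± 0.18 (edgeR adjusted p = 1.80e-05). PLCB3, a phospholipase C driven by Gq, fell by 2.14 ± 0.19 (edgeR adjusted p = 2.17e-05). Of 7 tested receptor kinases and arrestins 2 rose (GRK3, 1.299 ± 0.19, and GRK4, 1.08 ± 0.19) and 2 fell (ARRB2, -0.91 ± 0.18, and GRK5, -0.88 ± 0.32), with edgeR adjusted p of 0.000352, 0.000833, 0.00159 and 0.0433. The count that fell was 1 with any bud, or with the bulk of flask 252, 261 or 270, left out, and also with unscaled library sizes, with limma-voom and with flask as a block in the 3 flasks that gave both samples. Of 3 guanine nucleotide exchange factors with an RGS-like domain, ARHGEF1 (-1.32 ± 0.25) and ARHGEF12 (-0.46 ± 0.14) fell (edgeR adjusted p = 0.00143 and 0.0204), 1 of them with the bud of flask 270 left out. RIC8B, a chaperone of G alpha subunits, was the only 1 of 5 tested GoLoco and RIC8 genes to rise (0.82 ± 0.18, edgeR adjusted p = 0.00320), against 2 of 5 with the bulk of flask 264 left out.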

How the data were processed

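RNA was measured in 3 bud and 5 bulk libraries. Per the labels' protocols, polyadenylated RNA was selected and sequenced as paired ends. The deposited values are RSEM expected counts per Ensembl gene, which the authors made by aligning reads to GRCh38 with STAR at default settings, per the series design text; the sources used here do not give versions, annotation release or use of strand. Of the values 11.5% were not whole, and all were rounded. GENCODE release 44 gave symbols and GRCh38 coordinates to 57392 of 58233 rows (98.6%).

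Groups were compared in edgeR 4.0.16 (R 4.3.3; limma 3.58.1 and DESeq2 1.42.0 as alternatives) with TMM factors and no covariate. Genes passed the default filter at a minimum count of 10 and a minimum total of 15, and p-values of the quasi-likelihood test were adjusted over all 16641 genes by Benjamini-Hochberg, with a threshold of 0.05. CPM uses TMM-scaled library sizes. The profile distance used log2(CPM + 0.5). Floors and depth cover counting error only. The fit was tested on simulated counts.

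By the labels, flasks 264, 270 and 274 each gave a bud and a bulk. The flask thus pairs these samples by the labels. Their deviations from group means had correlations over genes of 0.127, 0.150 and 0.327, and those of buds and bulks from different flasks ran from -0.274 to 0.222, so the values alone do not single out the pairs. No 2 libraries of a group matched within sampling noise (chi-square per gene at least 9.49). The 10 genes and all lists were chosen with earlier results of these data known. The text names every listed RGS gene and other RGS genes past the filter. It also names the 3 largest changes that passed in each further pathway list. The 3 closest profiles to the largest rise and fall are named too. INSM1, NEUROD1, GNB5, GNG5, GRK5, ADCY8, PLCB4, PLCB1, the mesenchyme and pericyte markers and overlapping genes were named after their values were seen.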

Additional observations from a re-analysis of the deposited data

Results flagged for a closer look

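In the bulks, RGS2 stood at 100.9 CPM in flask 264, against 33.9 to 52.3 CPM in the other 4. The gap to the next bulk was 0.725 of the whole range, above the limit of 0.710 for 5 samples. Of 15 RGS genes examined in this way, RGS2 was the only 1 past that limit, which chance passes in about 1 of 20 groups. RGS7, at 1.32 CPM in the same library, had a gap of 0.697 of the range, under the limit. With that bulk left out the RGS2 log2 fold change was 1.33, against 0.997 with it.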

How the results depend on the processing

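The counts of RGS genes that rose and fell were 4 and 1 with TMM, RLE, upper-quartile and unscaled library sizes, and 5 and 1 with DESeq2, limma-voom, no expression filter, genes of at least 5 CPM in 3 libraries, or flask as a random effect, where RGS8 also passed. With flask as a block they were 4 and 1, in all libraries and in the 3 flasks with both samples, and the block changed no call among the listed genes. At a threshold of 0.01 they were 3 and 1. With 1 library left out they ran from 3 to 4 and stayed at 1; in the fit without the bulk of flask 270, RGS8 passed and RGS2 did not. Over all genes, 3894 rose and 3967 fell; with the block these were 3237 and 3384, and with 1 library left out 3147 to 3941 and 3036 to 4021. No scaling moved the median of all genes by over 0.1. Signs turned for 3 RGS genes, none of which passed in any setting. RGS4 had -0.23 without the bulks of flasks 252 and 264, and -0.20 to 0.25 with 1 library left out. RGS16 had -0.043 and -0.031 with the block (all libraries, and the 3 flasks with both samples), -0.21 without those 2 bulks, and -0.079 to 0.30 with 1 library left out. RGS19 had 0.0014 with RLE, 0.022 with unscaled sizes, 0.069 with limma-voom, 0.0049 with no filter, 0.073 and 0.085 with the block, 0.066 with flask as a random effect, and -0.41 to 0.27 with 1 library left out. The cause was not tested. RGS19 and RGS22 did not enter the test under the filter of 5 CPM. Depth limits RGS7BP, RGS22 and the bulk values of RGS7, RGS8 and GPR179, which rest on few counts. It also limits ACTA2, at a mean of 1.78 CPM in bulks and 0.323 in buds. The same holds for the bulk values of KCNJ8 and ABCC9, with means of 0.873 and 1.05 CPM.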
